A study of Mus musculus with 8 samples.

Results

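Antibody-secreting cells are rare in blood, and 8 genes that mark them or serve their secretory machinery are described here: the regulators Prdm1 and Xbp1, the endoplasmic reticulum genes Txndc5, Derl3, Fkbp11 and Mzb1, and the surface genes Sdc1 and Tnfrsf17. They were taken by name from a count table of 56748 mouse genes, each name matched 1 row, and 7 of the 8 had enough reads to be tested among 14723 genes. Peripheral blood mononuclear cells, the lymphocytes and monocytes that a density gradient recovers from blood, came from male wild-type C57BL/6J mice, a standard inbred strain, 8 weeks old at the start of dosing and on a standard diet. The control group (n = 5 libraries) was gavaged every day with saline for 1 month. The other group (n = 3 libraries) was gavaged every day for 1 month with fucoidan, a sulphated polysaccharide, here from the brown seaweed Undaria pinnatifida, at 200 mg per kg per day. One protocol field of the fucoidan samples speaks of saline. Their titles and treatment characteristic say fucoidan and were followed. The titles call the libraries biological replicates, but whether each is 1 mouse or a pool was not stated in the sources read.

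When a B cell becomes a plasma cell, the repressor Blimp-1, encoded by Prdm1, shuts down the B cell programme, and the transcription factor XBP1 enlarges the endoplasmic reticulum so that antibody can be folded and exported. XBP1 is also the effector of 1 arm of the unfolded protein response: the sensor IRE1 splices Xbp1 RNA under folding load, and the protein made from the spliced form switches on chaperones, disulphide isomerases and degradation factors. None of the 8 genes belongs to plasma cells alone. Blimp-1 also acts in effector T cells and natural killer cells, Xbp1 and Txndc5 are active in many leukocytes, and Sdc1 in epithelia.

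Reads were few for most of these genes. Over all 8 libraries they held 32345 counts, of which Txndc5 and Xbp1 gave 87.2%. Tnfrsf17, whose product BCMA keeps plasma cells alive, had 0 to 5 counts per library, whereas Jchain, the joining chain of secreted IgA and IgM, had 159 to 688. The set is therefore described gene by gene and not as a measure of plasma cell number. In bulk RNA, fewer cells of a type and less RNA per cell cannot be told apart.

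Total counts were 13061703 to 16334932 per library. Haemoglobin genes took 3.51 to 8.48% of them after saline and 13.55 to 24.1% after fucoidan, without overlap, so the composition of the libraries differed between the groups. Levels are given as CPM, counts divided by library size and scaled with TMM factors, which align libraries on the bulk of their genes, and differences as log2 of fucoidan over saline with a standard error (SE). Genes were called at an adjusted p under 0.05 in edgeR's quasi-likelihood test, adjusted over all 14723 genes. Summed B cell markers ran from 4983 to 6448 CPM after saline and from 3016 to 4243 CPM after fucoidan, and 12 of 14 fell, or 6 of 14 without fucoidan replicate 3. Summed markers of natural killer and effector T cells ran from 459 to 652 CPM and from 1043 to 1368 CPM, and 12 of 12 rose. These cell-type values moved with the treatment, and their part in the results below was not tested.

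Fucoidan gave 3 calls among the 7 genes tested, all lower: Sdc1, Mzb1 and Txndc5. Over all tested genes 13.8% were called, 9.11% higher and 4.65% lower. With upper-quartile scaling 1241 genes were higher and 989 lower, against 1341 and 684 with TMM, and the same 3 of the 8 genes were called. Both regulators stood higher on average after fucoidan without a call, as did Derl3. Fkbp11 stood lower, also without a call. The 7 tested genes had a median log2 difference of -0.49, against -0.04 over all tested genes.

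**Figure D1:**
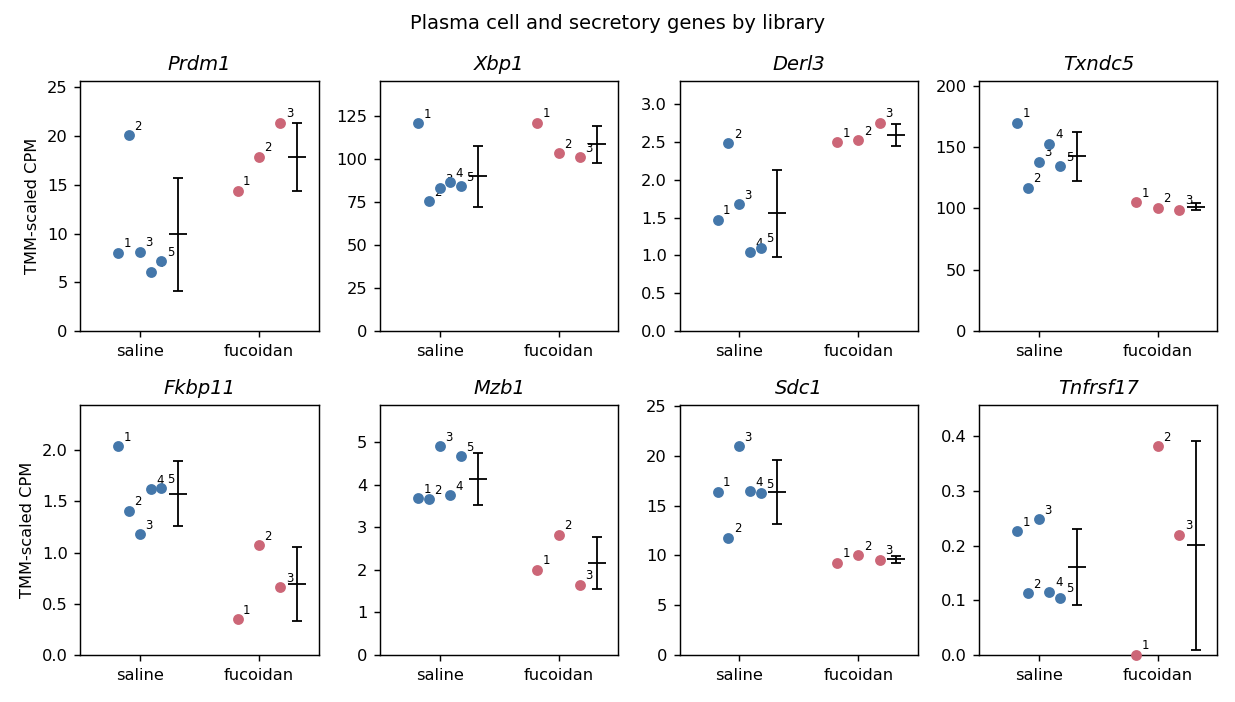
Levels of the 8 genes in each library, 1 panel per gene, with TMM-scaled CPM on a linear axis starting at 0. Points are libraries and the bar is the mean with 1 SD (5 saline, 3 fucoidan): Sdc1, Mzb1, Txndc5 and Fkbp11 lie lower after fucoidan without overlap, Derl3 lies higher without overlap, and the remaining 3 overlap.

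Prdm1 (ENSMUSG00000038151, GRCm39 chromosome 10, 44313173 to 44404497, minus strand) encodes Blimp-1, the repressor that commits a B cell to secretion. After saline it stood at 8.03, 20.1, 8.12, 6.07 and 7.20 CPM in replicates 1 to 5, and after fucoidan at 14.4, 17.9 and 21.3 CPM. Saline replicate 2 alone reached the fucoidan range; the other 4 saline libraries lay below all 3 fucoidan libraries. The means were 9.90 ± 5.76 CPM (SD, n = 5) and 17.9 ± 3.47 CPM (SD, n = 3), and the difference of 0.84 (SE 0.342) was not called by edgeR (adjusted p = 0.133). Without saline replicate 2 it was 1.27 and called (adjusted p = 0.00980). Leaving out any other library gave no call, and without fucoidan replicate 3 it was 0.71 (adjusted p = 0.389 in edgeR). With the replicate number as a block it was 0.67, also not called (adjusted p = 0.199).

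Xbp1 (ENSMUSG00000020484, chromosome 11, 5470659 to 5475893, plus strand) is the transcription factor of the secretory programme. Gene counts add its spliced and unspliced RNA together, so its activation was not measured. Its levels were 121, 75.5, 83.2, 86.6 and 84.2 CPM after saline and 121, 103 and 101 CPM after fucoidan. Saline replicate 1 was level with the highest fucoidan library, and the other 4 saline libraries were below all 3. With means of 90.1 ± 17.7 CPM (SD, n = 5) and 109 ± 11.0 CPM (SD, n = 3), the difference of 0.27 (SE 0.147) was not called by edgeR (adjusted p = 0.263). Without saline replicate 1 it was 0.40 and called (adjusted p = 0.0245). Leaving out any other library gave no call, and without fucoidan replicate 1 it was 0.18 (adjusted p = 0.567 in edgeR).

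Txndc5 (ENSMUSG00000038991, chromosome 13, 38684055 to 38712800, minus strand) encodes ERp46, a disulphide isomerase of the endoplasmic reticulum that is abundant in plasma cells. Saline libraries held 170, 117, 138, 153 and 135 CPM and fucoidan libraries 105, 101 and 98.9 CPM. Every fucoidan library lay below every saline library, and the fucoidan libraries were close to each other. Means were 142 ± 19.9 CPM (SD, n = 5) and 102 ± 3.12 CPM (SD, n = 3), so Txndc5 fell 1.40-fold, a difference of -0.49 (SE 0.123, adjusted p = 0.0234 in edgeR). The call was lost without saline replicate 4 (adjusted p = 0.0610) or fucoidan replicate 1, 2 or 3 (adjusted p = 0.0624, 0.0773 and 0.0926). The antisense genes that overlap it, Gm31834, Bmp6 and Gm47994, held 55, 36 and 17 counts over all libraries, against 16246 for Txndc5, and whether the counting used strand was not stated in the sources read.

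Derl3 (ENSMUSG00000009092, chromosome 10, 75729247 to 75731775, plus strand) encodes derlin-3, which helps to move misfolded glycoproteins out of the endoplasmic reticulum for degradation. It had 18 to 44 counts per library. Its levels were 1.47, 2.48, 1.67, 1.04 and 1.10 CPM after saline and 2.49, 2.52 and 2.75 CPM after fucoidan. The groups did not overlap, although saline replicate 2 was only just below the lowest fucoidan library. The means were 1.55 ± 0.579 CPM (SD, n = 5) and 2.59 ± 0.142 CPM (SD, n = 3). That difference of 0.73 (SE 0.320) was not called by edgeR (adjusted p = 0.163). Without saline replicate 2 it was 0.96 and called (adjusted p = 0.0497). Leaving out any other library gave no call. With the replicate number as a block it was 0.49 and not called (adjusted p = 0.460 in edgeR).

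Fkbp11 (ENSMUSG00000003355, chromosome 15, 98622247 to 98626079, minus strand) encodes a peptidyl-prolyl isomerase of the secretory pathway. It had 19 to 36 counts per saline library and 5, 14 and 6 counts in the fucoidan libraries. In CPM it stood at 2.04, 1.41, 1.18, 1.62 and 1.63 after saline and at 0.346, 1.07 and 0.660 after fucoidan. All fucoidan values were below all saline values, with fucoidan replicate 2 nearest to them. The means were 1.57 ± 0.317 CPM (SD, n = 5) and 0.692 ± 0.362 CPM (SD, n = 3), and the difference was -1.19 (SE 0.399) and not called by edgeR (adjusted p = 0.0736). Without fucoidan replicate 2 it was -1.69 and called (adjusted p = 0.0485). Leaving out any other library gave no call, and without fucoidan replicate 1 it was -0.83 (adjusted p = 0.251 in edgeR).

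Mzb1 (ENSMUSG00000024353, chromosome 18, 35780320 to 35782420, minus strand) encodes a resident endoplasmic reticulum cochaperone of marginal zone B cells and plasma cells that helps assemble IgM. It had 65 to 89 counts per saline library and 29, 37 and 15 counts in the fucoidan libraries. In CPM it stood at 3.68, 3.66, 4.90, 3.76 and 4.67 after saline and at 2.01, 2.83 and 1.65 after fucoidan, with no overlap. The group means were 4.13 ± 0.603 CPM (SD, n = 5) and 2.16 ± 0.602 CPM (SD, n = 3). In edgeR's fit Mzb1 fell 1.89-fold, a difference of -0.92 (SE 0.245, adjusted p = 0.0297). With the replicate number as a block the difference was -0.90 and not called (adjusted p = 0.108). The call was also lost without saline replicate 3, 4 or 5 (adjusted p = 0.0641, 0.0524 and 0.0623) or fucoidan replicate 1 or 3 (adjusted p = 0.108 and 0.140). Gm50318, a protein-coding gene on the same strand (35780321 to 35795216), covers almost all of the span of Mzb1 and held 0 counts over all libraries. How the counting treated reads that match both genes was not stated in the sources read.

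Sdc1 (ENSMUSG00000020592, chromosome 12, 8821323 to 8843715, plus strand) encodes syndecan-1, or CD138, the heparan sulphate proteoglycan by which plasma cells are sorted. After saline it stood at 16.4, 11.8, 21.0, 16.5 and 16.3 CPM, and after fucoidan at 9.27, 10.003 and 9.57 CPM. The fucoidan libraries were alike and all below the lowest saline library, replicate 2. Sdc1 fell 1.70-fold: the saline mean was 16.4 ± 3.25 CPM (SD, n = 5), the fucoidan mean 9.62 ± 0.366 CPM (SD, n = 3) and the difference -0.77 (SE 0.176, adjusted p = 0.0153 in edgeR). The call was lost without fucoidan replicate 1 (adjusted p = 0.0596) or replicate 3 (adjusted p = 0.0629).

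Epithelial markers were read beside Sdc1. Their summed level was 14.4 to 22.6 CPM after saline and 16.3 to 21.8 CPM after fucoidan, and Cdh1, the adhesion molecule E-cadherin, differed by 0.05 (adjusted p = 0.888 in edgeR), a sign that changed under some settings. Of the 6 markers, Krt8, Krt18, Krt19 and Cldn4 were too low to test and 0 of the other 2 were called. The keratin gene Krt19 had 0 counts in all 3 fucoidan libraries and 0 to 2 counts in the saline libraries.

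Tnfrsf17 (ENSMUSG00000022496, chromosome 16, 11131676 to 11137938, plus strand) had 4, 2, 4, 2 and 2 counts after saline and 0, 5 and 2 counts after fucoidan. The groups overlapped and no library had more than 5 counts. Pooled over the libraries of a group, that is 0.159 CPM after saline (95% exact Poisson interval 0.0871 to 0.267) and 0.191 CPM after fucoidan (0.0768 to 0.394), intervals that cover counting error only. A difference was not detectable at this depth. Without the filter edgeR gave 0.26 (SE 0.978, adjusted p = 0.914).

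Of the 8 genes 4, Sdc1, Mzb1, Txndc5 and Fkbp11, were lower in every fucoidan library than in any saline library, and 1, Derl3, was higher. Over all tested genes 11.0% were lower and 11.6% higher without overlap.

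**Figure D2:**
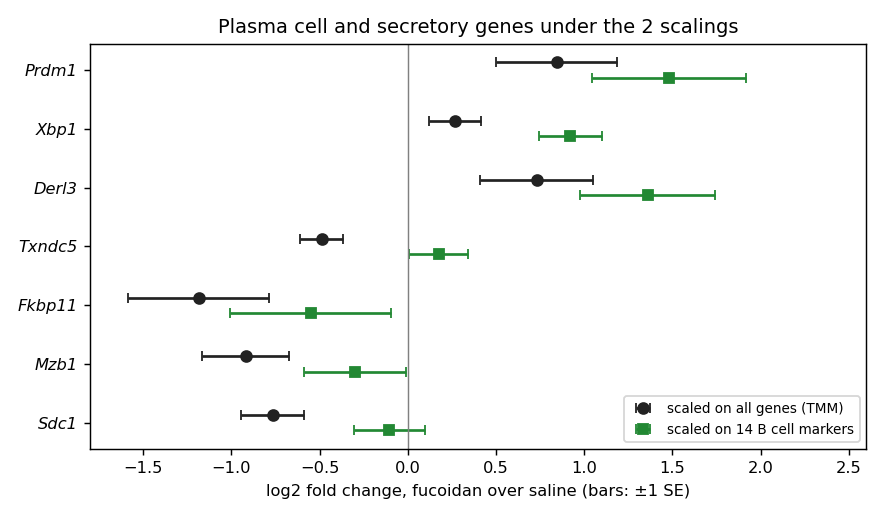
Log2 difference, fucoidan over saline, of the 7 tested genes with bars of 1 SE, on 2 scales: all libraries scaled with TMM, and all libraries scaled on 14 B cell markers. With TMM, Sdc1, Mzb1 and Txndc5 are called lower; on the B cell scale Xbp1, Derl3 and Prdm1 are called higher, where 57.3% of all genes are.

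The balance of the 2 most abundant of the 8 genes differed between the groups. Txndc5 had 1.40, 1.55, 1.66, 1.76 and 1.60 counts per count of Xbp1 in saline replicates 1 to 5, and 0.866, 0.975 and 0.977 in the fucoidan libraries. Txndc5 outnumbered Xbp1 in all 5 saline libraries and in 0 of the 3 fucoidan libraries. The mean ratio was 1.59 ± 0.134 (SD, n = 5) and 0.939 ± 0.0633 (SD, n = 3), a difference of -0.76 on the log2 scale. The exact two-sided permutation p was 0.0357, the smallest that the 56 arrangements of the libraries allow. This ratio was chosen after the values were seen, so its p describes the separation and is not independent support. It uses 2 genes of the same library and so does not depend on how libraries are scaled.

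**Figure D3:**
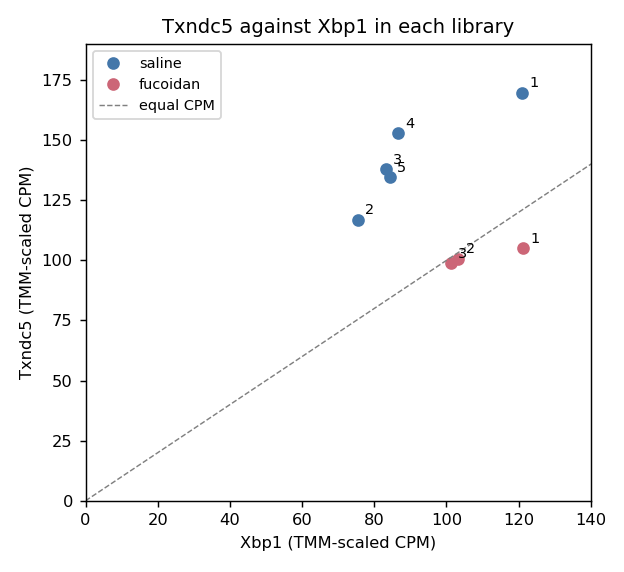
Txndc5 against Xbp1 in TMM-scaled CPM, 1 point per library labelled with its replicate number (5 saline, 3 fucoidan). The dashed line marks equal CPM. The saline libraries lie above it, at 1.40 to 1.76 counts of Txndc5 per count of Xbp1. The fucoidan libraries lie below it, at 0.866 to 0.977.

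Short stretches before the start sites of Derl3 and Txndc5 are shown because they were the windows of this gene set that held a motif of the unfolded protein response. RefSeq promoter windows on GRCm38.p6 were matched by symbol for 7 of the 8 genes (10 windows), and 250 bases upstream of each start were searched on both strands. The ER stress response element, bound by ATF6 and XBP1 together with NF-Y, was written as CCAAT, 9 bases, then CCACG, and occurred in 37 of 32851 windows (0.113%). A compact form, ERSE-II, was written as ATTGG, 1 base, then CCACG, and occurred in 10 (0.0304%). The core of the unfolded protein response element, TGACGTGG, occurred in 185 (0.563%). Each of the 2 windows shown held 1 match, so no matches overlapped. In Derl3 (chr10:75893236-75893265, plus strand) an ER stress response element lies on the minus strand, 156 to 138 bases before the start. In Txndc5 (chr13:38528034-38528063, minus strand) the core TGACGTGG lies 138 to 131 bases before the last of its 3 start sites in the table. Capitals mark the letters of each motif, read 5′ to 3′.
Derl3: ctctacCGTGGgacttccccATTGGctagc
Txndc5: ggcctcgccgcTGACGTGGcgctagccgcc
The windows of the other 5 matched genes held 0 of these letters in the order searched, which describes the window and not the factors. Derl3 stood higher after fucoidan and Txndc5 lower.

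Scaling each library on 14 B cell markers, in place of TMM, gives each gene per unit of B cell RNA, the lineage from which plasma cells arise. On this scale 3 genes were higher with fucoidan: Xbp1 by 0.92 (SE 0.177, adjusted p = 0.00102), Derl3 by 1.36 (SE 0.384, adjusted p = 0.00868) and Prdm1 by 1.48 (SE 0.438, adjusted p = 0.0163), all by edgeR. Because B cell markers were lower after fucoidan, the median of all tested genes moved to 0.61, and 57.6% of genes were called, 57.3% higher and 0.265% lower. Calls for 3 of 7 genes are therefore no more than that background. In a fit blocked on replicate number 4422 genes were called in place of 8477, and Derl3 stood at 1.10 without a call (adjusted p = 0.0661). Without fucoidan replicate 3, Prdm1 stood at 1.17 without a call (adjusted p = 0.0890), and 5315 genes were called.

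The 3 genes that fell with TMM were not called per unit of B cell RNA. Sdc1 stood at -0.10 (SE 0.200, adjusted p = 0.669 in edgeR), Mzb1 at -0.30 (SE 0.291, adjusted p = 0.385) and Txndc5 at 0.18 (SE 0.167, adjusted p = 0.375). Fkbp11 stood at -0.55 (SE 0.456, adjusted p = 0.307). These 4 values lie below the 0.61 of the median gene on that scale.

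Per kilobase of gene length, using the lengths in the authors' table, the order after saline was Txndc5 at 31.7, Xbp1 at 27.7, Sdc1 at 4.30, Mzb1 at 3.40, Prdm1 at 1.78, Derl3 at 0.779, Fkbp11 at 0.582 and Tnfrsf17 at 0.198 CPM per kb. Neighbours in that order overlapped between libraries except Xbp1 with Sdc1 and Fkbp11 with Tnfrsf17. After fucoidan Xbp1 led at 33.4 CPM per kb, then Txndc5 at 22.6, Prdm1 at 3.20, Sdc1 at 2.52, Mzb1 at 1.78, Derl3 at 1.30, Fkbp11 at 0.256 and Tnfrsf17 at 0.246. There the overlapping neighbours were Prdm1 with Sdc1, Mzb1 with Derl3, and Fkbp11 with Tnfrsf17. Prdm1 was the fifth of the 8 after saline and the third after fucoidan.

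Within the groups the genes varied in different ways, described here over 8 libraries after removing the group means, with no test. Xbp1 and Txndc5 varied together (Pearson r = 0.872, Spearman rho = 0.905, and r = 0.954 without saline replicate 1 and fucoidan replicate 1, the libraries farthest from the median of Xbp1). Derl3 followed Prdm1 (r = 0.912, rho = 0.881), although less so without saline replicates 2 and 4 (r = 0.548). Prdm1 ran against Txndc5 (r = -0.73, rho = -0.524, and r = -0.607 without saline replicates 1 and 2). All these values share the libraries and their scaling.

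Saline replicate 2 carried much of this spread. It had the highest saline level of Prdm1 (20.1 CPM), Derl3 (2.48 CPM), Irf4 (211 CPM against 77.8 to 107 CPM in the other 4) and the proliferation gene Mki67 (34.2 CPM against 10.7 to 20.4 CPM), and the lowest of Sdc1, Txndc5 and Xbp1. Irf4, a transcription factor of activated B cells, T cells and plasma cells, correlated with Prdm1 at r = 0.749 (rho = 0.238), and at r = -0.0105 without saline replicates 2 and 3. Sdc1 and Prdm1 gave r = -0.706 (rho = -0.262), and r = 0.00816 without the same 2 libraries. Both relations thus rest on those libraries. Summed proliferation markers were 98.8 CPM in saline replicate 2, 48.9 to 73.8 CPM in the other saline libraries and 78.2 to 110 CPM after fucoidan, and their part in these values was not tested.

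Fucoidan replicate 1 was low for Jchain and Igha, though not for every antibody gene. It had 11.0 CPM of Jchain against 45.1 and 37.6 CPM in the other fucoidan libraries, and 51.8 CPM of Igha, the constant region of IgA, against 255 and 194 CPM. Saline libraries held 24.6 to 38.9 CPM of Jchain and 123 to 189 CPM of Igha, so the group differences were -0.06 (adjusted p = 0.939 in edgeR) and -0.03 (adjusted p = 0.971). Without fucoidan replicate 1 the difference of Jchain turned to 0.36. For Igkc, the kappa light chain, the 3 fucoidan libraries held 1149, 1148 and 832 CPM, and for Ighm, the constant region of IgM, 2554, 2345 and 1817 CPM, so there replicate 3 was the lowest. Fucoidan replicate 1 also had the lowest Fkbp11 level (0.346 CPM) and the 0 of Tnfrsf17. Fkbp11 correlated with Jchain at r = 0.833 (rho = 0.714), and at r = 0.318 without fucoidan replicates 1 and 2.

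**Figure D4:**
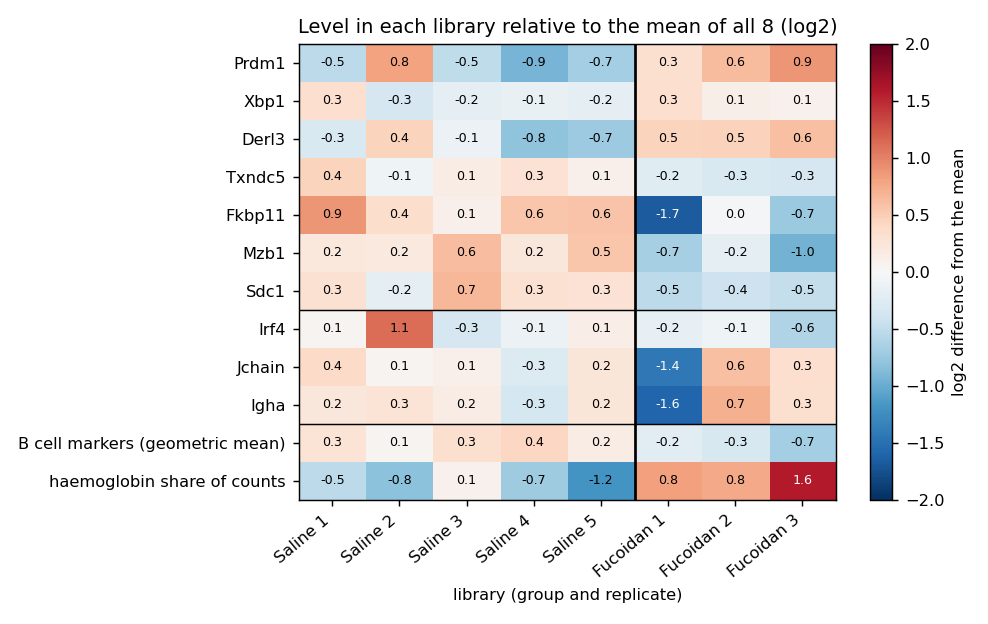
Level in each library (columns) of the 7 tested genes, Irf4, Jchain, Igha, the geometric mean of the B cell markers and the haemoglobin share, as the log2 difference from that row's mean log2 level over the 8 libraries (colour and printed value). Saline replicate 2 is high for Prdm1, Derl3 and Irf4, and fucoidan replicate 1 is low for Jchain, Igha and Fkbp11.

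For each of the 7 genes the closest of 11422 other protein-coding genes was found by Pearson r over the 8 libraries with group means removed. These were Map3k3 for Sdc1 (r = 0.979), Tbc1d13 for Xbp1 (0.993), Zpbp for Mzb1 (0.985), Dyrk3 for Derl3 (0.947), Alg9 for Txndc5 (0.978), Ctnnd1 for Fkbp11 (0.960) and 1700017B05Rik for Prdm1 (0.979). Each is the highest of 11422 values over 8 libraries and is given as a description only.

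Other genes listed for plasma cell identity did not move in 1 direction: of 10 tested, 1 rose and 2 fell, with a median of -0.06. Over all tested genes 9.11% rose and 4.65% fell. Tnfrsf13b, which encodes the BAFF and APRIL receptor TACI and is related to Tnfrsf17, fell by 0.94 (adjusted p = 0.00481 in edgeR); it averaged 120 ± 25.9 CPM after saline (SD, n = 5) and 62.7 ± 1.36 CPM after fucoidan (SD, n = 3). Cd38, an ectoenzyme of many lymphocytes, fell by 0.60 (adjusted p = 0.00841). Cd93, a lectin-like receptor of long-lived plasma cells that is also found on monocytes, rose by 0.38 (adjusted p = 0.0388), a call lost in 10 of 16 alternative settings, the replicate block among them. Irf4 differed by -0.53 (SE 0.288) without a call (adjusted p = 0.258). On the scale of B cell RNA 3 of the 10 were called higher and 0 lower, where 57.3% of all tested genes were higher. Their median there was 0.60. Cd93 was called at 1.06, while Tnfrsf13b at -0.28, Cd38 at 0.07 and Irf4 at 0.05 were not called.

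Folding genes and genes of the unfolded protein response, many of which XBP1 is known to raise, were counted beside the 13.8% called over all tested genes. Of 21 endoplasmic reticulum folding genes 1 rose, Hsp90b1, the chaperone GRP94 (0.62, adjusted p = 0.0118 in edgeR, lost without fucoidan replicate 1), and 1 fell, Ero1b, an oxidase that recharges disulphide isomerases (-0.54, adjusted p = 0.0206, lost without fucoidan replicate 2 or 3). Their median was 0.18. The number that rose was 5 with DESeq2's test or without saline replicate 1, and 0 without fucoidan replicate 1. The chaperone BiP, encoded by Hspa5, differed by 0.03 (adjusted p = 0.923). Of 11 genes of the unfolded protein response 1 fell, Ppp1r15a, the phosphatase subunit GADD34 (-0.91, adjusted p = 0.0280), with a median of -0.18. That call was lost with the replicate block and in 6 of 8 fits that leave out a library. Ern1, which encodes IRE1, differed by -0.06 (adjusted p = 0.843).

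Degradation and import genes gave 3 calls in 36. Of 15 degradation genes 2 rose: Edem1, a lectin for misfolded glycoproteins (0.67, adjusted p = 0.00640 in edgeR), and Derl1, a relative of Derl3 (0.81, adjusted p = 0.00791). With the replicate block 4 rose. Of 21 genes of translocation and signal cleavage 1 rose, Sec61g, a subunit of the protein-conducting channel, by 1.96 (adjusted p = 0.00396). It averaged 47.5 ± 15.2 CPM after saline (SD, n = 5) and 184 ± 71.6 CPM after fucoidan (SD, n = 3). Of 15 genes of transport from the endoplasmic reticulum to the Golgi 0 were called, and Sec23a, a COPII coat subunit, had the smallest p (0.36, adjusted p = 0.0714). DESeq2's test called 1 of the transport genes and 2 of the translocation genes higher, and without saline replicate 1 these counts were 1 and 3. The medians of these 3 lists were 0.12, 0.07 and 0.14.

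Of 8 genes of the B cell programme that Blimp-1 opposes, 3 fell, with a median of -0.51, where 4.65% of all tested genes fell. Without fucoidan replicate 3 the count was 1. The 3 genes were Ciita, the master activator of MHC class II genes (-0.67, adjusted p = 0.0105 in edgeR), and the B lineage factors Ebf1 (-0.65, adjusted p = 0.0155) and Pax5 (-0.62, adjusted p = 0.0463). The call of Ebf1 was lost without fucoidan replicate 3, and that of Pax5 with the replicate block (adjusted p = 0.140) and in 6 of 8 fits that leave out a library. Bach2, a repressor of Prdm1 in B cells, differed by -0.44 without a call (adjusted p = 0.154) and was called with the block (adjusted p = 0.0303). On the scale of B cell RNA, where 14 markers of the same lineage set the level, Ciita, Ebf1 and Pax5 stood at -0.01, -0.01 and 0.01, none of them called. Of the 8 genes 3 were called higher on that scale (Bcl6, Ets1 and Spib) and 0 lower, where 57.3% of all tested genes were higher. Of 11 immunoglobulin constant genes 3 fell, with a median of -0.54. That count was 6 with DESeq2's test, 5 with upper-quartile factors or without saline replicate 2, and 1 without fucoidan replicate 3. On the scale of B cell RNA 0 of the 11 were lower and 1 was higher, with a median of 0.08. Ighd, the constant region of IgD on naive B cells, fell by 1.06 (adjusted p = 0.00396), Iglc2 by 0.57 (adjusted p = 0.0177, lost without fucoidan replicate 2 or 3) and Ighg3 by 0.67 (adjusted p = 0.0269). The call of Ighg3 was lost with the block (adjusted p = 0.0608), with no filter (0.0518) and without saline replicate 3 (0.0589) or fucoidan replicate 1, 2 or 3 (0.102, 0.102 and 0.0503).

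Markers of other cell types and of proliferation gave the following counts. Among 12 markers of natural killer and effector T cells the median was 1.04, led by Prf1, the pore-forming perforin (1.17, adjusted p = 0.00396 in edgeR), and the receptors Klre1 (1.27) and Klrk1 (1.15). Of 10 markers of plasmacytoid dendritic cells, which are secretory cells with high Xbp1 activity, 2 rose (Klk1 and Ccr9) and 2 fell (Pacsin1 and Tcf4), and their sum ran from 698 to 875 CPM after saline and from 665 to 874 CPM after fucoidan. Of 10 proliferation markers 1 rose, the thymidylate synthase gene Tyms (1.09, adjusted p = 0.0107, not called with the block or without fucoidan replicate 1), with a median of 0.57. The number that rose was 0 with the block, 2 with DESeq2's test and 3 without saline replicate 2. Of 10 monocyte markers 2 rose, Ace and Spn, and 1 fell, Fn1 (-1.31). Leaving out single libraries ended the calls of Klk1, Ccr9, Tcf4, Ace and Spn in 4, 6, 2, 1 and 3 of 8 fits. All 11 tested markers of red cells and all 11 of platelets rose, with medians of 2.31 and 1.58, and with no filter on low counts 7 and 5 were called higher.

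**Figure D5:**
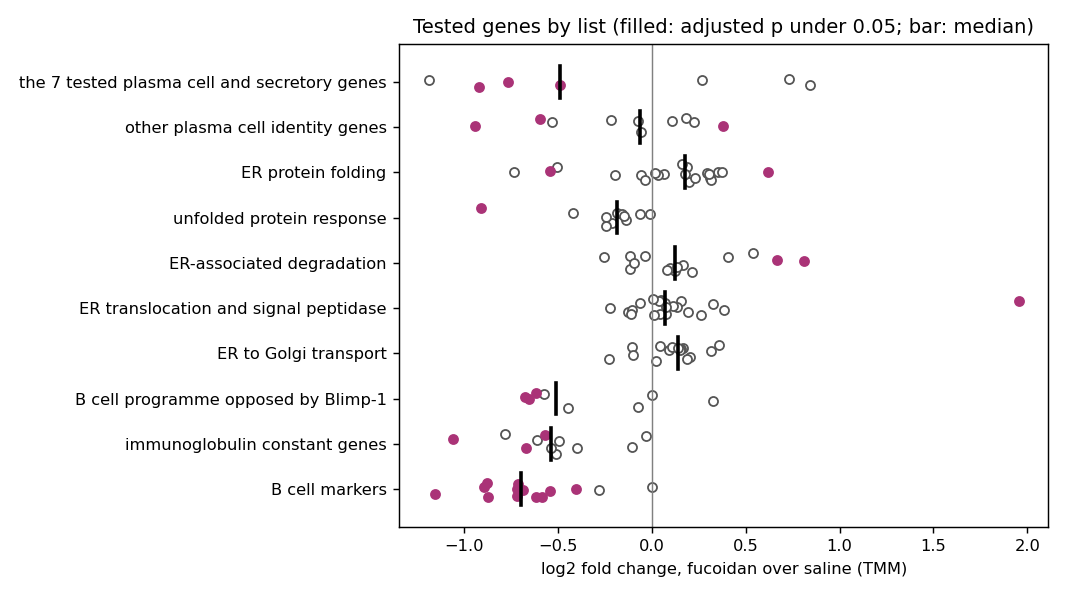
Log2 difference, fucoidan over saline with TMM scaling, of every tested gene in 10 of the lists (1 row per list, 1 point per gene, vertical jitter for legibility). Filled points were called and the black bar is the list's median. The medians of the secretory lists lie near 0, with 0 to 2 filled points each, of which Sec61g lies farthest from 0, at 1.96. Of the 14 B cell markers 12 are filled and lower.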

How the data were processed

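The authors deposited raw read counts per gene, whole numbers, from poly(A) libraries of 8 samples. Per the submitters' processing notes, cutadapt 4.0, Trimmomatic 0.39 and HISAT2 2.2.1 were used, with the mouse genome build GRCm39 (mm39). For the counting, neither program nor annotation nor strand was given in the sources used here. Gene lengths and coordinates are those of the deposited table.

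From the counts, genes were filtered with filterByExpr (minimum count 10), scaled with TMM and tested with edgeR 4.0.16 (R 4.3.3, robust quasi-likelihood, groups only, Benjamini-Hochberg over 14723 genes, threshold 0.05). The SE is the absolute log2 difference over the square root of F. The B cell scale used the geometric mean of 14 markers. The ratio was tested by exact permutation in scipy 1.17.1. Alternatives used DESeq2 1.42.0, limma 3.58.1 (voom), other scaling, other filters, a replicate block, and leaving out each library. The procedure was tested on simulated data.

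Each listed gene set contributed up to 3 called genes per direction with the smallest p, or 1 gene where none was called; Irf4, Jchain, Pax5 and Bach2 were always named. Hspa5, Ern1, Igha, Igkc, Ighm, Mki67 and Krt19 were added after their values were seen. The genes and lists were chosen with earlier results of these data known. No list was tested as a set. Likeness was computed on log2 CPM (prior count 2) over genes of at least 1 CPM.

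Libraries with the same replicate number correlated at r = 0.177, 0.233 and 0.144 after removing group means, and other pairs across groups at -0.261 to 0.144. The labels do not say what the numbers mark. The main fit did not use them. They were treated as pairing only in the replicate block, on this correlation alone, and saline replicates 4 and 5 have no partner. All libraries carry 1 batch date. No pair of libraries of a group agreed within sampling noise (chi-square per gene 14.18 to 85.34, where 1 is sampling noise). If the libraries are not separate animals, p-values measure the spread between samples only.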

Additional observations from a re-analysis of the deposited data

Results flagged for a closer look

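Of 49 values examined, 10 had 1 saline library farther from the other 4 than Dixon's 95% limit, which chance alone passes in about 1 in 20 groups. Of these, 2 were among the 8 genes: Xbp1 in saline replicate 1 stood at 121 CPM, against 75.5 to 86.6 CPM, and Prdm1 in saline replicate 2 at 20.1 CPM, against 6.07 to 8.12 CPM. Each is the library without which that gene was called higher with fucoidan.

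Irf4 (211 CPM, against 77.8 to 107 CPM) and Tyms (3.21 CPM, against 1.97 to 2.15 CPM) were also high in saline replicate 2. In saline replicate 1, Sec23a was high (32.2 CPM, against 24.4 to 25.1 CPM) and Tcf4 low (65.9 CPM, against 75.9 to 79.7 CPM). In saline replicate 3, Edem1 (227 CPM, against 205 to 209 CPM) and Tspo2 (24.6 CPM, against 7.43 to 11.9 CPM) were high. In saline replicate 4, Ciita (359 CPM, against 238 to 265 CPM) and Cd22 (649 CPM, against 505 to 535 CPM) were high. The fucoidan group has 3 libraries and was not examined this way.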

How the results depend on the processing

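Sdc1, Mzb1 and Txndc5 were the called genes of the set, all lower, under 7 alternatives: DESeq2 size factors, upper-quartile factors, scaling without haemoglobin genes, DESeq2's test, limma-voom, no filter and at least 10 counts in every library. With the replicate block 2 of the 8 were called (Sdc1 and Txndc5) and 1561 genes in all, against 3 and 2025 without it. Leaving out 1 library gave 928 to 2224 called genes and 0 to 5 of the 8. The count among the 8 was 5 when saline replicate 2 was left out, 1 for saline replicate 4, and 0 for fucoidan replicate 1 or 3. All genes together moved to 1291 without saline replicate 4 and 928 without fucoidan replicate 3. On the B cell scale Xbp1, Derl3 and Prdm1 were called in every alternative except the replicate block and without fucoidan replicate 3, with 2 each. The sign of Sdc1 on that scale turned without fucoidan replicate 1 (0.0123; range -0.240 to 0.0123 over libraries left out). Jchain turned without saline replicate 1 (0.0190) or fucoidan replicate 1 (0.358; range -0.432 to 0.358), and Cdh1 with upper-quartile factors (-0.000452) and when saline replicate 2 (-0.0115), saline replicate 4 (-0.0235) or fucoidan replicate 3 (-0.00968) was left out (range -0.0235 to 0.148). The Txndc5 to Xbp1 difference was -0.704 to -0.806 with 1 library left out, at the smallest exact permutation p those designs allow (0.0571 or 0.0952). Beside the losses of calls given with each gene, the cause of these shifts was not tested. Counts of 0 to 44 per library limit Derl3, Fkbp11 and Tnfrsf17. In the fucoidan libraries counts of 15 to 37 limit Mzb1.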
